A study of Mus musculus with 8 samples.

Results

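The genes described here are named for proteins of the mitochondrial ribosome. They were chosen by symbol alone, as the rows whose name consists of Mrpl or Mrps, a number and, where present, a letter from a to c. The rule found 76 of the 17922 rows of the deposited expression table, 47 for the large subunit (Mrpl) and 29 for the small subunit (Mrps), each symbol on a single row. The series followed mouse embryonic fibroblasts (MEFs) on their way to induced pluripotent stem cells (iPSCs), and RNA was sequenced at 4 stages with 1 library each. The iPSC library came from cells that the labels call fully reprogrammed. The day 6 and day 3 libraries came from MEFs taken 6 and 3 days after doxycycline (2 µg/mL) was given to switch on OSKM, the reprogramming factors Oct4, Sox2, Klf4 and Myc. The remaining library was made from MEFs at day 0. Every group derived from C57BL/6 fetuses at embryonic day 13.5, and per the labels' growth protocol the MEFs carried tetO-OSKM, the inducible transgene, and had gone through few passages. The induced cells were grown in serum replacement medium (15%) with LIF, N-2 and 3 µM CHIR99021, an inhibitor of the kinase GSK3. Not given in the sources used here are the medium of the MEFs before induction, the number of animals or cultures in a library, and whether the iPSCs were 1 clone or several.

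Mitochondrial ribosomes translate the few mRNAs of the mitochondrial genome, whose products are core subunits of the respiratory chain and of ATP synthase. Their RNAs are made inside the organelle, while all their proteins are encoded in the nucleus, made by cytosolic ribosomes and imported. The small subunit reads the mRNA at the decoding site, and the large subunit joins the amino acids at the peptidyl transferase site and passes the chain through an exit tunnel next to the inner membrane. Some of the proteins have bacterial homologues and the others were added during the evolution of mitochondria.

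Values are FPKM, fragments scaled to gene length and library size, so levels of different genes can be set side by side, but libraries can be compared only as shares of their RNA, since molecules per cell were not counted. Differences are on the log2(FPKM + 1) scale, on which the change of a low gene is understated. The rule of size used throughout asks for a difference of at least 1 (2-fold) with at least 1 FPKM in the higher library, and only genes past it are called higher or lower. With 1 library per group no difference has an error or a test. The columns summed to between 438130 and 486609 FPKM. Read depth is not stated. Relative fragments were estimated as the most frequent ratio to the MEF library among rows above 0 and below 0.06 FPKM in both. The day 3 library came to about 0.64 of the MEF library, and the other libraries to 1.01 to 1.04. This estimate is rough. That ratio was held by 21 of 920 rows for day 3, 21 of 1038 for day 6 and 14 of 554 for iPSCs. The stage labels were checked against 10 fibroblast and 10 pluripotency markers, of which all 10 were lower and all 10 higher in iPSCs than in MEFs. Summed macrophage and leukocyte markers came to 86.5, 63.4, 69.1 and 51.6 FPKM from MEFs through day 3 and day 6 to iPSCs. At day 3 all 8 of these markers that could be compared lay below MEFs, and 3 of 9 (Ptprc, Tyrobp and Emr1) were listed at 0 in iPSCs. Most of the iPSC sum came from Laptm5, with 38.5 FPKM in iPSCs and 4.31 FPKM in MEFs (2.90, higher), and Cd68, with 11.9 and 8.45 FPKM (0.45). Epidermal markers summed to 3.67, 4.58, 20.02 and 1.61 FPKM over the 4 stages. Of 6 measured, 4 could be compared between day 6 and MEFs. Of these, 3 (Krt14, Krt16 and Sprr1a) were higher at day 6, beside 0.77% of all rows. Krt14 and Krt16, at 0 and 0.0662 FPKM in MEFs, reached 1 FPKM only at day 6, as did Trp63, which was within the rule. These genes thus entered the count only through the library where they were highest. Krt15 and Krt6a were below 1 FPKM in every library. The part of any such change in cell makeup in the values below was not tested, and in bulk RNA fewer cells of a type and less RNA per cell cannot be told apart.

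All 76 genes had at least 1 FPKM in every library, so none was lost to a filter on low values. Their levels nevertheless spanned a wide range. Mrpl33, the homologue of bacterial L33, was the most abundant by mean level, with 204, 158, 207 and 125 FPKM in MEFs, day 3, day 6 and iPSCs. Mrpl52, a protein of mitochondrial ribosomes with no bacterial homologue, had 137, 121, 125 and 127 FPKM. Mrps21, the homologue of bacterial S21, had 112, 97.1, 98.1 and 54.9 FPKM. These were followed by the large subunit gene Mrpl17 (90.2, 83.0, 89.8 and 94.7 FPKM) and by Mrps18c, one of the paralogues of bacterial S18 (87.9, 81.6, 73.8 and 65.1 FPKM). At the other end stood Mrps33 with 5.45, 4.88, 4.09 and 8.69 FPKM, and Mrpl35 with 6.51, 6.56, 6.47 and 11.3 FPKM. Mrpl1, of the mobile stalk where spent tRNA leaves, had 6.54, 5.86, 6.62 and 14.8 FPKM. Mrps27, a pentatricopeptide repeat protein, had 7.50, 6.89, 7.13 and 15.9 FPKM, and Mrpl46 had 10.3, 10.4, 9.94 and 9.48 FPKM. Proteins that sit in the same particle thus had mRNA levels that differed by more than 10-fold within each library.

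Summed over the 76 genes, the levels of MEFs, day 3, day 6 and iPSCs were 2466, 2234, 2334 and 3155 FPKM. The iPSC sum was 1.28 times that of MEFs, and the day 3 and day 6 sums were 0.906 and 0.947 times it. The column totals differed, however. As shares of the column the members made up 0.507%, 0.479%, 0.519% and 0.72% in the same order. By share, day 6 thus lay slightly above MEFs. Large subunit genes summed to 1642, 1479, 1574 and 2159 FPKM and small subunit genes to 824, 755, 761 and 995 FPKM over the same stages, and iPSCs had 1.31 and 1.21 times the MEF value. Of the 76 genes, 55 had their highest value in iPSCs, 17 in MEFs, 3 at day 6 and 1 at day 3. The lowest value fell at day 3 for 34 genes, at day 6 for 20, in iPSCs for 13 and in MEFs for 9. Both subunits therefore had their largest summed level in iPSCs and their smallest at day 3.

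**Figure D1:**
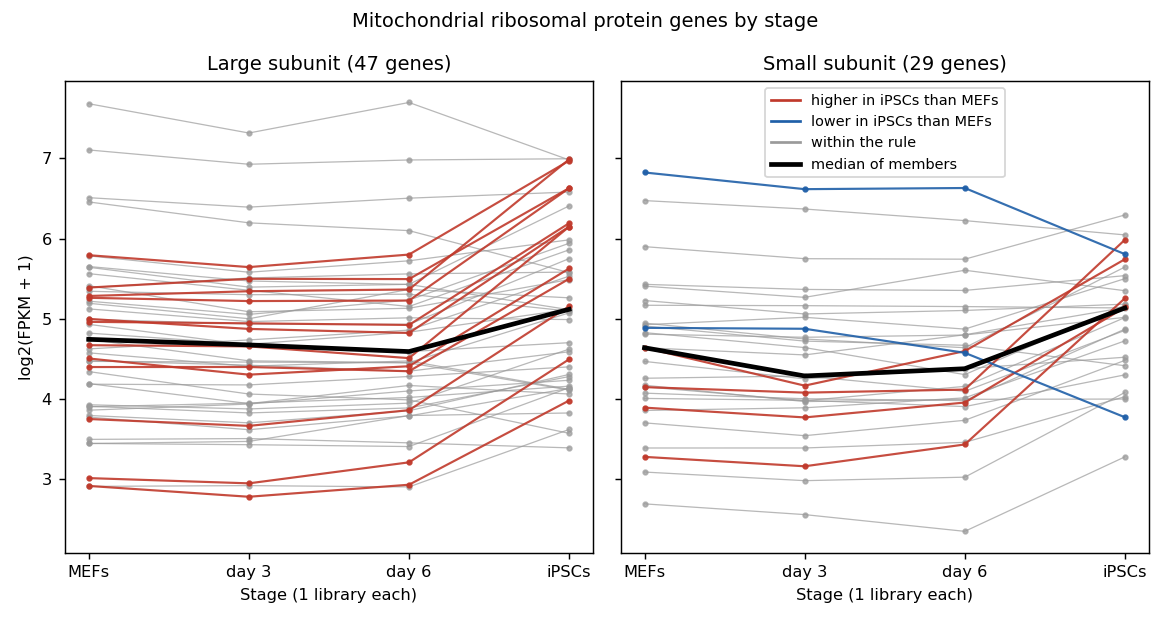
Levels as log2(FPKM + 1) of the large subunit and small subunit genes in MEFs, day 3, day 6 and iPSCs, with a line for each gene (red higher, blue lower in iPSCs than in MEFs) and a black line for the median of each subunit. The medians lie between 18.5 and 25.8 FPKM in the first 3 libraries and at 33.7 (large) and 34.1 FPKM (small) in iPSCs.

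At day 3 the genes stayed close to their MEF values. None of the 76 passed the rule in either direction, as did only 0.221% of all 11740 rows compared. The median difference, day 3 minus MEFs, was -0.11 (quartiles -0.18 and -0.02), beside -0.02 over all rows, and 14 genes lay above 0 and 62 below. Among all rows 46.2% lay above 0. Large subunit genes had a median of -0.09 with 10 of 47 above 0, and small subunit genes one of -0.12 with 4 of 29 above 0. The count above 0 depended on the scaling, with 28 of 76 when all columns were given the same sum and 12 with median-of-ratios factors. The distance of the median from that of all rows was between -0.10 and -0.07 under every scaling and pseudocount tried. With no minimum FPKM it was -0.11.

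The members that lay lowest at day 3 were mixed in role. Mrps35, a protein of the small subunit with no bacterial homologue, had 16.9 FPKM at day 3 and 23.9 FPKM in MEFs, a difference of -0.47. Mrpl33 had 158 FPKM at day 3 and 204 FPKM in MEFs (-0.37), and Mrpl51, of the large subunit, had 33.0 and 41.6 FPKM (-0.32). Mrpl27, whose bacterial homologue reaches the peptidyl transferase site, had 15.7 FPKM at day 3 and 19.3 FPKM in MEFs (-0.28), and Mrpl4, a tunnel protein, had 21.2 and 25.8 FPKM (-0.27). These differences are all short of 1.5-fold. The largest positive ones were smaller still, with 0.12 for Mrpl13, 0.11 for Mrpl22 (tunnel wall) and Mrpl2 (next to the peptidyl transferase site), 0.09 for Mrps18b and 0.08 for Mrpl14. Mrpl13 had 44.5 FPKM at day 3 and 40.9 FPKM in MEFs, and Mrpl14 had 14.3 and 13.5 FPKM.

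Between day 3 and day 6 the genes moved little again, and none passed the rule, which 0.855% of 11817 rows did. The median difference, day 6 minus day 3, was 0.04, beside -0.01 over all rows, with 46 genes above 0 (60.5%), as were 47.4% of rows. The highest differences were those of Mrps35 with 23.2 FPKM at day 6 and 16.9 FPKM at day 3 (0.43) and Mrpl33 with 207 and 158 FPKM (0.38). Both were also the lowest in day 3 minus MEFs, and the day 3 library enters both contrasts. Mrpl32 followed with 40.2 FPKM at day 6 and 31.0 FPKM at day 3 (0.37), Mrps17 with 47.7 and 37.5 FPKM (0.34), and Mrpl50 with 12.9 and 10.1 FPKM (0.32). At the lower end was Mrps12, the decoding site protein in which bacterial streptomycin resistance mutations arise, with 18.7 FPKM at day 6 and 23.9 FPKM at day 3 (-0.34). Mrps6 had 22.8 FPKM at day 6 and 28.3 FPKM at day 3 (-0.30), Mrps33 had 4.09 and 4.88 FPKM (-0.21), Mrpl34 had 34.6 and 39.9 FPKM (-0.20), and Mrps28 had 16.1 and 18.5 FPKM (-0.19). Day 6 minus MEFs gave 0 genes past the rule (1.35% of 11816 rows) and a median of -0.04. Over MEFs, day 3 and day 6 together, the highest and lowest value of a gene differed by a median of 0.17 and at most by 0.52 (Mrps12), so all 76 stayed within 1.5-fold before the iPSC stage.

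In iPSCs 16 of the 76 genes (21.1%) were higher than in MEFs by the rule, and 2 (2.63%) were lower. Over all 12937 rows compared, 21.1% were higher and 25.0% lower. The share of higher genes thus equalled the background, while the share of lower genes was below it. The median difference, iPSCs minus MEFs, was 0.37 (quartiles -0.04 and 0.86), beside -0.05 over all rows, and 56 genes lay above 0 (73.7%), beside 48.6% of rows. At a threshold of 1.5-fold, 32 genes (42.1%) were higher and 5 (6.58%) lower, against 31.5% and 34.7% of rows, and 39 were within it. The spread of the members was also narrow, with a robust SD of 0.63 over all 76, of which 71 had 10 to 100 FPKM. It was 1.29 among the 6183 rows of 10 to 100 FPKM.

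Scaling moved the balance of the calls in this contrast. With libraries brought to the same upper quartile, or to the same column sum, 20 members (26.3%) were higher and 0 lower, beside 24.9% higher and 21.8% lower among all rows under the first and 24.2% and 22.3% under the second. The upper quartile scaling moved the median of all rows from -0.05 to 0.13. The median of the members less that of all rows was 0.42 under each of the 4 scalings. Against day 6 the picture was close to that against MEFs, with 18 genes higher in iPSCs (23.7%) and 0 lower, where 20.4% of 12951 rows were higher and 23.4% lower, and a median of 0.42. Both contrasts use the iPSC library.

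The large subunit had 12 genes called higher in iPSCs, among them 2 of the 5 listed for the exit tunnel, Mrpl45 and Mrpl24. Mrpl15, the homologue of bacterial L15, had 38.0, 39.6, 40.2 and 126 FPKM in MEFs, day 3, day 6 and iPSCs, and the iPSC value was 1.70 above MEFs on the log2 scale. Mrpl47, homologous to bacterial L29 at the tunnel rim, had 7.07, 6.71, 8.24 and 21.5 FPKM (1.48). Mrpl45, which has no bacterial homologue and tethers the tunnel exit to the inner membrane, had 24.5, 24.2, 21.8 and 69.9 FPKM (1.48). In all 3 the first libraries lay close together and the iPSC library alone was high. Mrpl24, also at the tunnel exit, had 37.3, 36.3, 36.4 and 98.0 FPKM (1.37). The other 3 of the tunnel list differed less. Mrpl23 had 30.8, 29.6, 29.5 and 52.8 FPKM (0.76), Mrpl22 had 23.7, 25.6, 28.0 and 45.2 FPKM (0.91), and Mrpl4 had 25.8, 21.2, 20.9 and 32.7 FPKM (0.33), all short of the rule.

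Members near the peptidyl transferase site went in both directions. Mrpl2 was higher in iPSCs, with 40.9, 44.2, 44.1 and 98.0 FPKM over the 4 stages (1.24). Mrpl3 had 21.1, 21.0, 20.9 and 16.3 FPKM (-0.36) and Mrpl27 had 19.3, 15.7, 14.9 and 10.9 FPKM (-0.77), both lowest in iPSCs but within the rule. Mrpl16 had 13.9, 14.4, 15.2 and 16.9 FPKM (0.26). Of these 4 genes only Mrpl2 passed the rule.

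The stalks that bind translation factors and release tRNA were as uneven. Mrpl11, at the base of the factor-binding stalk, had 30.1, 29.8, 29.3 and 72.1 FPKM (1.23). Mrpl12, which forms the stalk itself, had 12.9, 12.01, 13.4 and 18.8 FPKM (0.51). Mrpl10, which holds Mrpl12 in place, had 39.6, 38.4, 38.6 and 33.2 FPKM (-0.25). The protein at the base was higher in iPSCs, and its partners were within the rule on either side of 0. Mrpl1, of the opposite stalk, was higher in iPSCs at 14.8 FPKM, against 6.54 FPKM in MEFs (1.07).

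The remaining large subunit genes called higher were Mrpl49, Mrpl42, Mrpl28, Mrpl40 and Mrpl38, of which only Mrpl28 is named for a bacterial homologue. Mrpl49 had 12.4, 11.7, 13.5 and 34.6 FPKM over the 4 stages (1.41). Mrpl42 had 54.4, 49.0, 54.7 and 125 FPKM (1.18), and Mrpl28 had 31.0, 28.3, 27.3 and 70.0 FPKM (1.15). Mrpl40 and Mrpl38 reached 48.4 and 44.2 FPKM in iPSCs, against 21.7 and 20.1 FPKM in MEFs (1.12 and 1.10). In each of these 5 genes the iPSC value lay above all 3 other libraries, which did not differ by 1.5-fold among themselves.

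Of the small subunit genes 4 were higher in iPSCs, and they held the largest differences of either subunit. Mrps31, which has no bacterial homologue, had 8.69, 7.93, 9.79 and 37.2 FPKM in MEFs, day 3, day 6 and iPSCs, a difference of 1.98 from MEFs. Mrps5, homologous to the bacterial protein at the mRNA entry side, had 16.7, 15.9, 16.3 and 62.4 FPKM (1.84). Mrps10, of the head of the subunit, had 13.8, 12.6, 14.5 and 34.3 FPKM (1.25), and Mrps35 had 23.9, 16.9, 23.2 and 52.5 FPKM (1.10). Mrps31 and Mrps5 thus lay above the subunit's median of 34.1 FPKM in iPSCs and below that of 23.9 FPKM in MEFs. Mrps27 lay just outside the rule at 0.99, although its FPKM ratio was 2.12, and Mrpl1 just inside it at 1.07. At the decoding site, Mrps12 had 27.4, 23.9, 18.7 and 35.0 FPKM (0.34), with its low point at day 6.

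The 2 genes called lower both belong to the small subunit and have bacterial homologues. Mrps6 had 28.6, 28.3, 22.8 and 12.7 FPKM over the 4 stages (-1.12), and its day 6 value already lay below the earlier ones. Mrps21 had 112, 97.1, 98.1 and 54.9 FPKM (-1.02). Neither call held under the upper quartile or column sum scalings or with a pseudocount of 5, and Mrps6 shares a long stretch of annotation with another gene, described with the neighbours. Next in order, and within the rule, were Mrpl54 (86.9, 72.3, 67.6 and 46.7 FPKM, -0.88), Mrpl27 (-0.77) and Mrpl33 (-0.70). Mrpl20, whose homologue binds the large rRNA early in bacterial assembly, had 49.3, 43.4, 42.0 and 33.6 FPKM (-0.54). Mrps7, of the small subunit head, had 29.0, 25.4, 24.4 and 20.3 FPKM (-0.50), and Mrpl41 had 22.8, 20.2, 21.2 and 16.4 FPKM (-0.46). Among the 8 lowest differences were 3 of the 6 most abundant genes of the MEF library, with Mrpl33, Mrps21 and Mrpl54 having 125, 54.9 and 46.7 FPKM in iPSCs, against 204, 112 and 86.9 FPKM in MEFs.

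**Figure D2:**
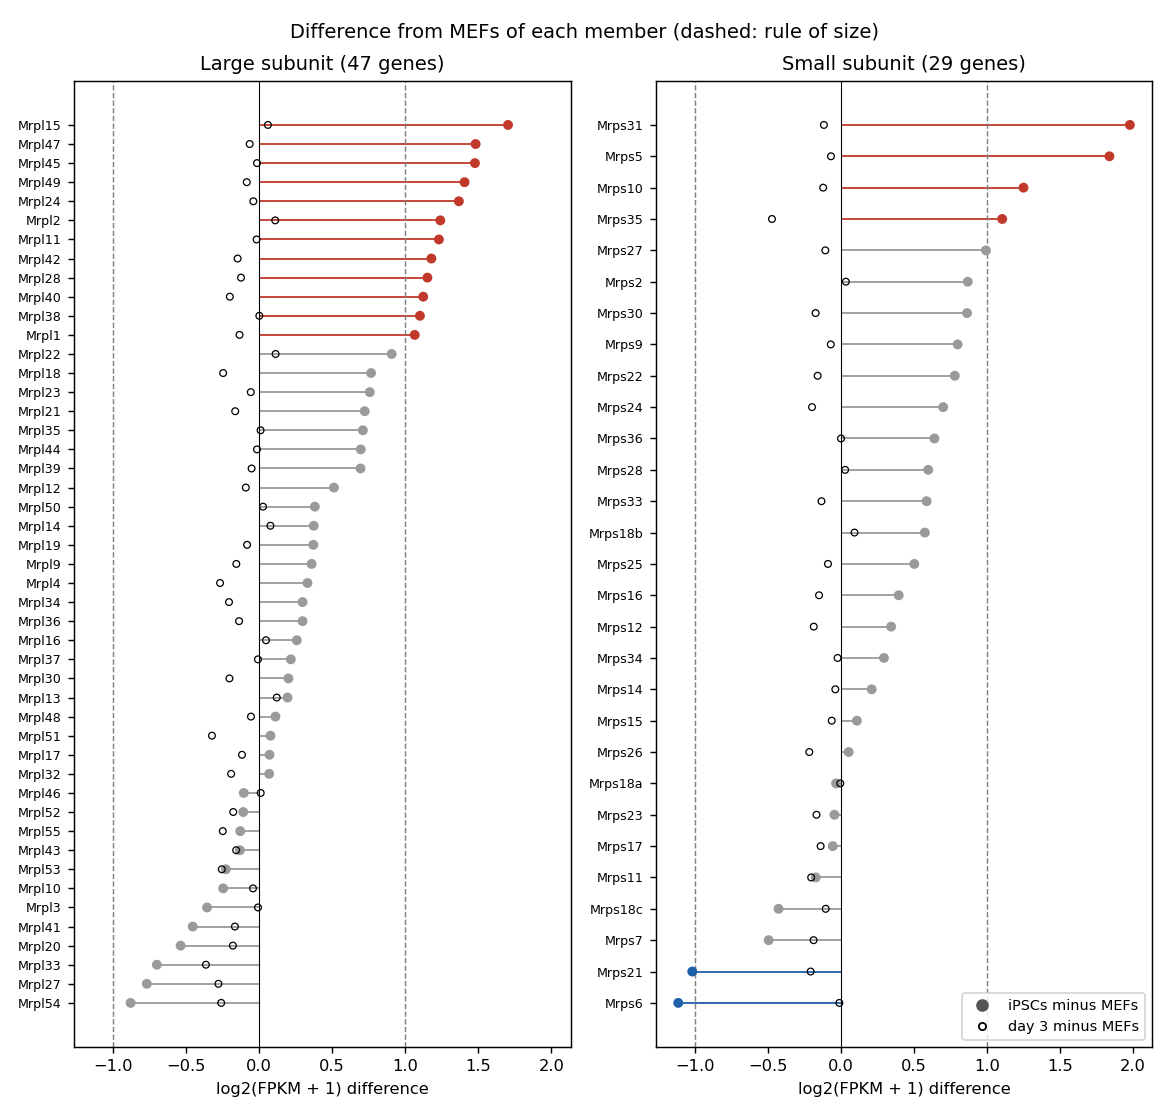
Difference of log2(FPKM + 1) for each of the 76 genes, large subunit and small subunit in separate panels, with filled points for iPSCs minus MEFs and open points for day 3 minus MEFs; dashed lines mark the rule of size at -1 and 1, with higher genes in red and lower ones in blue. The open points lie between -0.47 and 0.12, and the filled ones between -1.12 (Mrps6) and 1.98 (Mrps31).

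The subunits did not separate by their differences. Large subunit genes had a median of 0.36 with 12 of 47 higher and 0 lower, and small subunit genes one of 0.50 with 4 of 29 higher and 2 lower. The summed small subunit level was 0.461 of the large subunit sum in iPSCs, against 0.502 in MEFs, with 0.510 at day 3 and 0.483 at day 6. The ratio of the medians went the other way, at 1.01 in iPSCs and 0.927 in MEFs, with 0.755 at day 3 and 0.856 at day 6. Without Mrpl33 the ratios of the sums were 0.489 in iPSCs and 0.573 in MEFs. Small subunit genes were more even in iPSCs, where the SD of their log2 levels was 0.73, against 0.95 in MEFs, while that of large subunit genes was 1.03 in both. The 5 genes of highest mean level over the 4 libraries took 14.8% of the members' sum in iPSCs, against 25.6% in MEFs. They took 24.2% at day 3 and 25.4% at day 6. This fixed set is not the top 5 of the iPSC library, where Mrpl15 and Mrpl42 had 126 and 125 FPKM. Ranks across members were nonetheless largely kept between MEFs and iPSCs, with a Spearman rho of 0.76 over the 76 genes, 0.81 within the large and 0.63 within the small subunit. Over all 13101 rows of at least 1 FPKM it was 0.64. Genes of a library share its preparation and are not independent replicates.

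Origin of the protein gave no clear division either. The 46 genes named for bacterial homologues had a median of 0.35 with 9 higher and 2 lower, and the 29 with names for mitochondria-specific proteins in structures, which include the S18 paralogues Mrps18a and Mrps18b, one of 0.50 with 7 higher and 0 lower. The 10 genes of highest mean level had a median of -0.02 and the other 66 one of 0.38, and mean level includes the libraries compared. Several proteins are placed by structure outside the subunit of their symbol. Mrps18a and Mrps30 lie in the large subunit. Mrps36 is now counted with the oxoglutarate dehydrogenase complex and not as a subunit of the ribosome, so it is in neither class above. Mrps18a was level, with 35.0, 34.8, 34.5 and 34.1 FPKM over the 4 stages (-0.03), while Mrps30 had 16.8, 14.8, 16.8 and 31.3 FPKM (0.86) and Mrps36 had 9.46, 9.47, 9.99 and 15.3 FPKM (0.64). The 3 paralogues of bacterial S18 took different courses. Mrps18b had 29.4, 31.4, 28.3 and 44.3 FPKM (0.57), and Mrps18c was lowest in iPSCs at 65.1 FPKM, against 87.9 FPKM in MEFs (-0.43).

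Genes that work with the mitochondrial ribosome were set beside its proteins, and their counts in iPSCs minus MEFs stand against the 21.1% higher and 25.0% lower of all rows. Among 6 further proteins of the particle whose symbols differ, only Dap3, a GTP-binding protein of the small subunit first described in cell death, was higher, with 43.9, 38.0, 44.2 and 124 FPKM over the 4 stages (1.48). Of 25 assembly factors iPSCs had 4 higher (16%) and 1 lower (4%), with a median of 0.56, so the share of higher ones was not above the background. The higher ones were the GTPases Gtpbp10 (12.7 FPKM in iPSCs and 4.45 in MEFs) and Mtg1 (11.7 and 4.49), the rRNA methylase Tfb1m (9.66 and 4.03) and the matrix protein C1qbp (73.3 and 35.7). The lower one was Nsun4, an rRNA methylase and assembly factor, with 7.12 FPKM in iPSCs and 16.5 FPKM in MEFs. Of 18 translation factors and regulators 2 were higher (median 0.48), the recycling factor Gfm2 (21.3 and 9.53 FPKM) and the mRNA stability factor Lrpprc (37.7 and 17.7 FPKM).

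Mitochondrial aminoacyl-tRNA synthetases, which charge the tRNAs that these ribosomes use, had a median of 0.70, with 6 of 17 higher and 1 lower. Vars2 had 23.1 FPKM in iPSCs and 6.56 FPKM in MEFs, Nars2 had 11.2 and 3.80 FPKM, Sars2 had 13.8 and 4.82 FPKM, and Aars2 had 10.1 and 3.60 FPKM. Wars2 went the other way, with 1.73 FPKM in iPSCs and 8.39 FPKM in MEFs (-1.78). Of 10 genes for mitochondrial DNA expression and replication 4 were higher and 0 lower (median 0.92), among them Tfam, which packages mitochondrial DNA and starts its transcription, with 52.2 FPKM in iPSCs and 18.4 FPKM in MEFs. The median of the assembly, translation factor and synthetase lists at day 3 minus MEFs was 0.02, 0.00 and 0.02, beside -0.11 for the ribosomal proteins.

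Protein genes of the cytosolic ribosome and nuclear genes of the respiratory chain had medians on the same side of 0 as the mitochondrial ones in both contrasts. At day 3 minus MEFs the 79 cytosolic genes had a median of -0.14 with 74 below 0, and the nuclear respiratory chain and ATP synthase genes one of -0.15 with 66 of 75 below. In iPSCs minus MEFs the medians were 0.81 (19 of 79 higher, 0 lower) and 0.44 (12 of 77 higher, 0 lower). Cytosolic ribosomal protein mRNA summed to 29.2 times the mitochondrial sum in iPSCs, against 22.1 times in MEFs. The 13 mRNAs that mitochondrial ribosomes translate had medians on the opposite side of 0. The median was 0.33 at day 3 minus MEFs with 11 of 13 above 0, and -0.72 in iPSCs minus MEFs with 9 of 13 below 0, 4 lower and 1 higher. Summed over the 4 stages in order they came to 15376, 18318, 17980 and 9913 FPKM. All these lists share the same 4 libraries, and values per library are shares of one total.

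**Figure D3:**
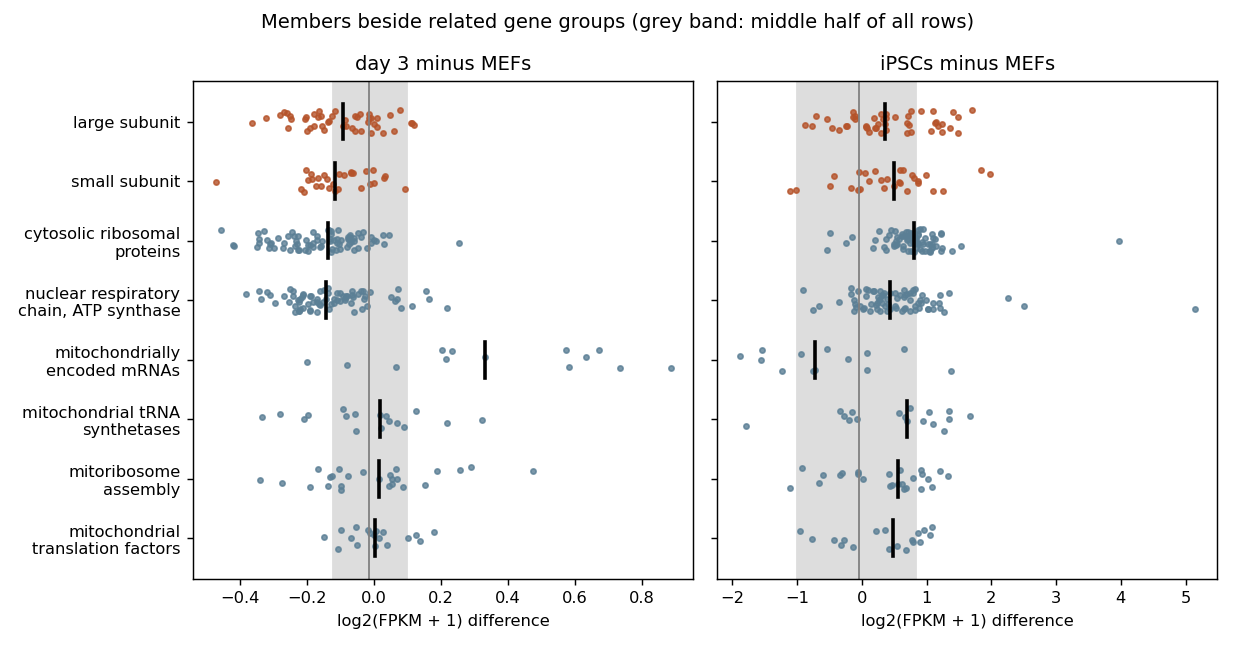
Differences of log2(FPKM + 1) for the mitochondrial ribosomal protein genes and 6 of the related gene lists in day 3 minus MEFs and iPSCs minus MEFs, with a point for each gene and a bar at each median; the grey line and band are the median and the range between the quartiles of all rows. In iPSCs minus MEFs the medians of the lists drawn run from -0.72 for the mitochondrially encoded mRNAs to 0.81 for the cytosolic ribosomal proteins.

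Promoters of nuclear genes for mitochondrial proteins are known for sites of NRF1, of ETS factors such as GABP (also called NRF2) and of YY1. Windows from 250 bases before to 50 after the gene start were found for 67 of the 76 genes in RefSeq (assembly GRCm38.p6). They were searched on both strands for 6 motifs by their letters: TGCGCA (NRF1), CCGGAAG (ETS), AAGATGG (YY1), GGGCGG (SP1), CACGTG (E-box) and CCAAT (NF-Y). No pair of these motifs contains the other, but matches can share bases where they meet. ETS letters stood in 23 of the 67 windows (34.3%), against 18.01% of the 10215 windows of genes with at least 1 FPKM and 9.12% of all 27025. NRF1 letters stood in 19 (28.4%), against 14.6% and 8.06%, and YY1 letters in 13 (19.4%), against 7.16% and 6.48%. SP1 letters were in 49.3% of member windows, against 65.7% of those of genes with at least 1 FPKM, while the E-box (7.46%, against 10.3%) and NF-Y (40.3%, against 39.3%) were closer to that share. A match describes letters and does not show that a factor was bound.

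The stretches that follow are the 200 bases before the gene start of genes that carry the results, written on the strand of the gene, with motif matches in capitals and positions counted back from the start. Mrps31 (chr8:22411140-22411339, plus strand) and Mrpl45 (chr11:97315516-97315715, plus strand) were higher in iPSCs. Mrps6 (chr16:92058136-92058335, plus strand) and Mrps21 (chr3:95871515-95871714, minus strand) were lower. Mrpl52 (chr14:54426709-54426908, plus strand) and Mrps16 (chr14:20393491-20393690, minus strand) are abundant genes with ETS letters that were within the rule.
Mrps31: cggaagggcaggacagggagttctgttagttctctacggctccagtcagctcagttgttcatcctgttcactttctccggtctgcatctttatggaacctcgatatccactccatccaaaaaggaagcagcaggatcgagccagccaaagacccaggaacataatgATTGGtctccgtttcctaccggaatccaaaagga
Mrpl45: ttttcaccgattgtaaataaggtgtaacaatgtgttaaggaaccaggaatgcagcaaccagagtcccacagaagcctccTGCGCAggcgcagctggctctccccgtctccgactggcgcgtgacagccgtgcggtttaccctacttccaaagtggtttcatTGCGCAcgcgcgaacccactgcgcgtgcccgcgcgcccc
Mrps6: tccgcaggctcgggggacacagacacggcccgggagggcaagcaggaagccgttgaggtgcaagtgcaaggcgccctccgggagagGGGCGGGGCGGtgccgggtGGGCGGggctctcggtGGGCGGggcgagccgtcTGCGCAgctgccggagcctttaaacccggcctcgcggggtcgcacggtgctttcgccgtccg
Mrps21: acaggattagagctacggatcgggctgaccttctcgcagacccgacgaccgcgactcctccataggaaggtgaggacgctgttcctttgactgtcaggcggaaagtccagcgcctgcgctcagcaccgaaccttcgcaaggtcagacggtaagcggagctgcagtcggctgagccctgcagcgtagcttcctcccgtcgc
Mrpl52: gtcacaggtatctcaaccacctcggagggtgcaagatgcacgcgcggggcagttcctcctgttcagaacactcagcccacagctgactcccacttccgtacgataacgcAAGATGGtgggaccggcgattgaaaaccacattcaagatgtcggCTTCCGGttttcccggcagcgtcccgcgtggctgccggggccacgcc
Mrps16: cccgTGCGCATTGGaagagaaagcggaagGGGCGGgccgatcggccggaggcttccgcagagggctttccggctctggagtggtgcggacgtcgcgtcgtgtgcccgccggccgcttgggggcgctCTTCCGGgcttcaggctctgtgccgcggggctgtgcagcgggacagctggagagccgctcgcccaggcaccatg
In these stretches the Mrps31 promoter held a single match, NF-Y at -34 on the opposite strand, and that of Mrpl45 held NRF1 letters at -121 and -39. Mrps6 had 4 SP1 matches between -114 and -79 and an NRF1 match at -62. Mrps21 had none before its start and ETS letters at 19 bases after it. Mrpl52 had YY1 letters at -91 and ETS letters at -47, and Mrps16 had NRF1, NF-Y, SP1 and ETS letters at -196, -191, -171 and -74. Genes of the same particle thus had promoters with different letters.

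The ETS letters divided the members by their iPSC difference, a split looked at after the values were known. Of the 23 genes that held them 0 were higher in iPSCs than in MEFs and 1 (Mrps21) was lower, with a median difference of 0.07 and 13 above 0. Of the 44 genes without them 13 were higher and 1 (Mrps6) was lower, with a median of 0.58 and 35 above 0. The other members called higher, Mrpl15, Mrpl38 and Mrps35, had no window and are in neither group. The highest holder was Mrps27 at 0.99, just outside the rule. The holders were also the more abundant genes, with a median mean level of 34.4 FPKM, against 20.6 FPKM for the others, and the part of that level in the split was not tested. Outside the members, 17.0% of 1815 genes with ETS letters were higher and 16.7% lower (median 0.05), against 21.6% and 26.5% of 8221 without (median -0.09). The medians of that wider set thus stood in the opposite order to those of the members. NRF1 letters made no such division of the medians among the members, with 0.36 for 19 holders and 0.38 for 48 others. By calls, 2 of the 19 holders were higher and 1 lower, against 11 higher and 1 lower of the 48 others. Medians with and without the letters were 0.30 and 0.39 for YY1 and 0.34 and 0.44 for SP1. For the E-box they were 0.22 and 0.39, and for NF-Y 0.38 and 0.37.

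**Figure D4:**
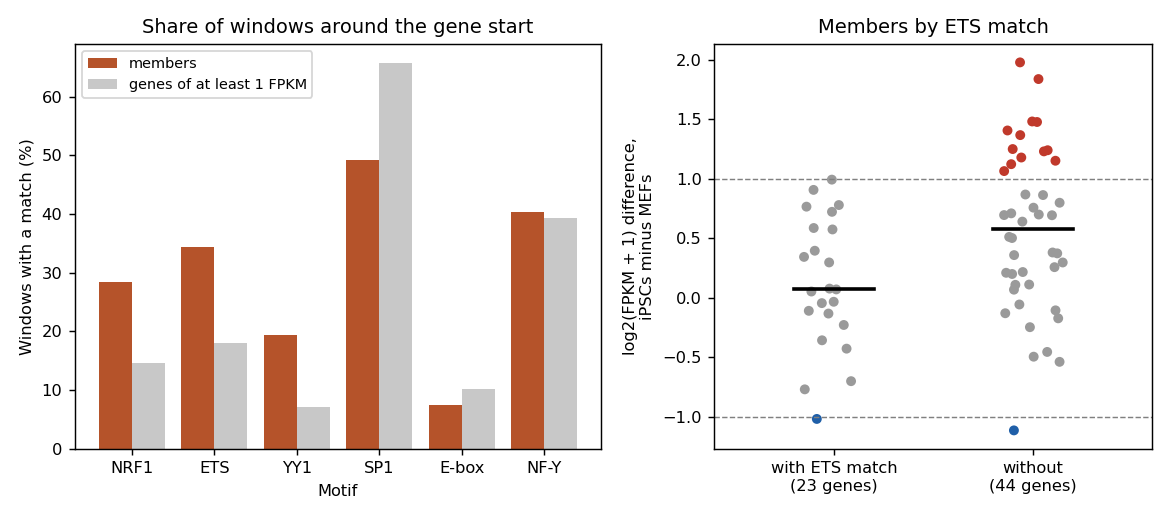
Share of promoter windows that hold each of the 6 motifs, for the 67 members with a window and for genes with at least 1 FPKM, and the iPSCs minus MEFs difference of members with and without ETS letters (red higher, blue lower and grey within the rule, bars at the medians). Members exceed genes of at least 1 FPKM in the shares for ETS, NRF1 and YY1, and the medians by ETS letters are 0.07 with and 0.58 without.

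Many of the genes lie close to a neighbour, and 26 had a gene starting within 1000 bases on the other strand. For 24 of these the partner was in the table, and in 12 both genes lay above 0 in iPSCs minus MEFs while in 9 the signs were opposite. Mrps12 (0.34) starts 147 bases from Sars2, the mitochondrial seryl-tRNA synthetase, which was higher in iPSCs (1.35). Mrpl27 (-0.77) starts 48 bases from Eme1, a subunit of a DNA repair nuclease, with 13.8 FPKM in iPSCs and 2.77 FPKM in MEFs (1.98). Mrps18c (-0.43) faces the helicase gene Helq (1.65) and Mrpl51 (0.08) the condensin gene Ncapd2 (2.44). In these 4 pairs, the last 2 picked for their values, the partner was higher in iPSCs and the member was not. The same held for Mrps7 (-0.50) and its partner Gga3 (1.08). No other partner of the 24 was called higher. The share of partners called higher was thus near the 21.1% of all rows. Mrpl46 and Mrps11, both members, start 42 bases apart and differed by -0.11 and -0.17. Mrpl47 (1.48) faces Ndufb5 of respiratory complex I (0.70), Mrpl49 (1.41) faces the ribosomal protein gene Fau (0.46), Mrps27 faces Ptcd2 (0.89) and Mrpl40 faces the histone chaperone gene Hira (0.98).

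By the RefSeq annotation 23 members overlap another gene, counted over whole gene spans with introns. How many of the shared bases are exons was not counted. Reads of bases shared with a gene on the other strand cannot be assigned with certainty, since no source used here gives the strand setting. Mrps6 shares 29138 bases of its span with Slc5a3, an inositol transporter gene on the same strand, so strand could not separate their reads. Slc5a3 had 10.5, 12.8, 7.67 and 5.72 FPKM over the 4 stages. Mrpl24 shares 850 bases with Rrnad1, Mrpl49 shares 89 with Syvn1 and Mrpl2 shares 18 with Klc4. Mrps7 shares 378 bases with Gga3 and 119 with Mif4gd. Among the 53 members with no such overlap the iPSCs minus MEFs contrast gave 13 higher, 1 lower and a median of 0.36.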

How the data were processed

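Long RNA was depleted of ribosomal RNA and sequenced from MEFs, day 3, day 6 and iPSCs, 1 library each, and the table column for day 0 was read as MEFs. The small RNA libraries of the same 4 stages were not analysed here. The deposited values are FPKM per gene, per the file headers. Per the submitters' processing notes, the authors used HISAT2, Cufflinks and build mm9, in versions and roles not stated. Also not given in the sources used here are gene models, strand setting, filters and pooling. Differences of log2(FPKM + 1) were computed with Python 3.11.15 and pandas 2.3.3, and the step was tested on simulated data. Rows with at least 1 FPKM in either library were compared. With 1 library per group there is no test. The members and lists were chosen with earlier results of these data known, and protein classes and the split by motif were added after the values were seen.

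Named members are the 12 highest and 8 lowest for iPSCs minus MEFs, the 5 highest and 5 lowest in each early contrast and by mean FPKM, and genes of named roles. Mrpl40, Mrpl38, Mrps16 and the partners Helq and Ncapd2 are beyond that rule or were picked for their values. Of 76 identifiers 75 were in the reference list of gene names. Promoters, neighbours and overlaps come from RefSeq on GRCm38.p6, which is not the build of the files. Alternatives were pseudocounts of 0.1 and 5, scaling to the same upper quartile, median-of-ratios factors or column sum, a 1.5-fold threshold, no minimum or a minimum of 5 FPKM, subunits by structure, and all rows of a symbol.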

Additional observations from a re-analysis of the deposited data

How the results depend on the processing

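In the early contrasts 0 members were called under every alternative. With every member above 1 FPKM and on a single row, removing the minimum or taking all rows of a symbol could change no count. The count of members lower in iPSCs than in MEFs, 2 as reported, was 0 with a pseudocount of 5, with the same upper quartile and with the same column sum, 1 with median-of-ratios factors and 5 at 1.5-fold. At 1.5-fold 32 members were higher in iPSCs than in MEFs in place of 16, and 35 were higher and 3 lower than at day 6 in place of 18 and 0. The median of all members, iPSCs minus MEFs, ranged from 0.30 to 0.54. Medians for day 6 minus MEFs changed sign in 5 cases. Those of all members and of large subunit members, -0.04 and -0.02 as reported, were 0.01 and 0.03 with the same upper quartile, and 0.07 and 0.08 with the same column sum, which also put the small subunit at 0.03 in place of -0.08. No paired analysis was possible because there was a single library for every stage, and for the same reason no replicate could be left out. Depth is unknown, so counting error cannot be given. If the rough estimate of relative fragments holds, low values are least precise at day 3.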

Other observations

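Of 10 regulators of mitochondrial gene expression, 9 reached 1 FPKM in MEFs or iPSCs. By the rule of 2-fold, iPSCs minus MEFs gave 5 of these 9 higher (55.6%) and 1 lower (11.1%). Over all rows compared, 21.1% were higher and 25.0% lower. Ppargc1b and Mycn passed the minimum only through iPSCs, where they were high, so the 55.6% rests partly on that filter. Ppargc1a, below the minimum in both, had 0.0516 FPKM in iPSCs and 0.304 FPKM in MEFs. Nrf1, the factor of the NRF1 motif, had 40.9 FPKM in iPSCs and 14.3 FPKM in MEFs, a difference of 1.46. Gabpb1, a subunit of the ETS factor GABP, had 26.7 FPKM in iPSCs and 11.7 FPKM in MEFs (1.13), and its DNA-binding partner Gabpa had 45.8 and 24.4 FPKM (0.88, within the rule). The coactivator Pprc1 had 22.0 FPKM in iPSCs and 10.5 FPKM in MEFs (1.00). Ppargc1b, a related coactivator, had 1.13 FPKM in iPSCs and 0.0392 FPKM in MEFs. Among the Myc genes the levels were exchanged, with Mycn at 22.1 FPKM in iPSCs and listed at 0 in MEFs, and Myc at 1.83 FPKM in iPSCs and 16.8 FPKM in MEFs. The FPKM of Myc can include reads of the transgene.

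Mrp63, the older symbol of a further large subunit protein that the naming rule did not take, had 7.04, 7.89, 7.50 and 8.80 FPKM in MEFs, day 3, day 6 and iPSCs. Its values lay among those of the less abundant members.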
